A study of Homo sapiens with 2 samples.

Results

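The genes described here are 35 genes of glycolysis and of the transcriptional response to low oxygen, taken by symbol from the 33694 genes of the deposited matrix, and all 35 were found. They fall into 19 glycolytic members (glucose uptake, the glycolytic enzymes and lactate dehydrogenase) and 16 other hypoxia members. The cells were HMLER, a transformed human mammary epithelial cell line. From its derivative C1, gene editing had given C1-sgEED cells, with EED as the target, C1-sgKMT2D cells, with KMT2D as the target, and C1-sgControl cells. EED is a subunit of the Polycomb complex that places a repressive histone mark, and KMT2D is a histone methyltransferase active at enhancers. Each line carried its own hashtag antibody (hashtag 3, 4 and 1 in that order), and all were run as 1 pool in 1 single-cell RNA library made from the transcripts' 3′ ends. All lines grew in the same medium with insulin, EGF and hydrocortisone, and the labels state no oxygen level, no guide sequence and no number of clones per line. A further hashtag, number 2, marked 1934 cells whose line the labels do not name, and their values are given apart, in the closing sections.

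Cells short of oxygen stabilise the hypoxia-inducible factors (HIF), which otherwise are marked for destruction by prolyl hydroxylases such as EGLN3. HIF binds short DNA motifs with the core ACGTG or GCGTG and raises the transcription of glucose transporters, glycolytic enzymes, angiogenic factors and genes that limit mitochondrial use of pyruvate. Many of these genes also answer to other signals, among them nutrient stress, glucocorticoids and lipid-sensing receptors, and glycolytic enzymes are abundant in most proliferating cells.

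The filtered cells numbered 2338 for C1-sgEED, 2348 for C1-sgKMT2D and 1720 for C1-sgControl, with median depths of 3915, 5526 and 5672.5 UMIs (unique molecules counted per cell). Filters on genes and mitochondrial UMIs removed 6.78%, 5.89% and 27.2% of the barcodes of these lines. Cells with more VIM than KRT17 UMIs are called VIM-rich, and those with more KRT17 than VIM UMIs KRT17-rich. VIM-rich cells made up 51.1% of C1-sgEED, 49.6% of C1-sgKMT2D and 4.13% of C1-sgControl cells. Of the 71 VIM-rich C1-sgControl cells, only 2 had at least 3-fold more VIM than KRT17, so no VIM-rich control range was used. Where VIM-rich levels stand beside KRT17-rich C1-sgControl levels, line and range cannot be told apart. Markers that the split did not use followed it. The summed level of 10 epithelial markers was 925 CPM (a gene's UMIs scaled to the same UMI total in every group) in VIM-rich and 6882 CPM in KRT17-rich C1-sgEED cells, 1892 and 8750.3 CPM in the C1-sgKMT2D ranges, and 8857 CPM in KRT17-rich C1-sgControl cells. The 10 mesenchymal markers summed to 857 and 159 CPM in the C1-sgEED ranges, 494 and 60.9 CPM in the C1-sgKMT2D ranges, and 127 CPM in KRT17-rich C1-sgControl cells. Immune, endothelial and neural markers each summed to at most 1.91 CPM. EED RNA, the first target, stood at 13.4 CPM in all C1-sgEED, 15.3 CPM in all C1-sgKMT2D and 13.6 CPM in all C1-sgControl cells, and KMT2D RNA at 3.02, 5.02 and 4.63 CPM in the same order. Counts of 3′ ends do not show an edit further upstream, so these levels do not check the knockouts. Within C1-sgEED, EED RNA was 5.74 CPM in VIM-rich and 20.1 CPM in KRT17-rich cells.

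Each line is 1 sample, so there is no replicate and no test of any difference. Intervals are 95% and cover counting error only. Levels are UMIs summed over the cells of a group and scaled to CPM, and a gene counts as measured in a comparison at 10 CPM or more in either group. Called higher or lower means at least 1.5-fold, and medians of log2 ratios were taken after adding 1 CPM. Because 3′ counts were used, levels are compared between groups and not between genes.

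Promoter sequences are shown for 5 hypoxia members called different between groups below, to set the letters of the HIF motif beside the values. They are the 250 bases before a RefSeq start on GRCh38.p14, read 5′ to 3′ on the gene's strand, with each ACGTG or GCGTG on either strand in capitals (a motif on the other strand appears as CACGT or CACGC). ANGPTL4 lies at chr19:8363905-8364154 on the plus strand, CA9 at chr9:35673678-35673927 on the plus strand, PDK1 (one of its starts) at chr2:172555840-172556089 on the plus strand, ANKRD37 at chr4:185396591-185396840 on the plus strand and EGLN3 at chr14:33951075-33951324 on the minus strand.
ANGPTL4: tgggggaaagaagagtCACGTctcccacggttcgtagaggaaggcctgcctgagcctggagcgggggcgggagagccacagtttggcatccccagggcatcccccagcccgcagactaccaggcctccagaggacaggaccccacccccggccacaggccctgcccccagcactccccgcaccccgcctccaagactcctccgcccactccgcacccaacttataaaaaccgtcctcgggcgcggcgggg
CA9: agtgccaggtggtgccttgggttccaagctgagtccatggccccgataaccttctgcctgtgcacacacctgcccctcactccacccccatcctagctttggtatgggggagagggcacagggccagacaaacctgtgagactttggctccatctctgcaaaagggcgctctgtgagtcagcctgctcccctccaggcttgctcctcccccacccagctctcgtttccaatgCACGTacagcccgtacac
PDK1: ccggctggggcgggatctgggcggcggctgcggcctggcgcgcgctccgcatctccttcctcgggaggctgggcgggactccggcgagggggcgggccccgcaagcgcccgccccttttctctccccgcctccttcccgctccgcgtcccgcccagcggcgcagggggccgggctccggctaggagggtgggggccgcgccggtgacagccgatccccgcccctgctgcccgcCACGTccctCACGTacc
ANKRD37: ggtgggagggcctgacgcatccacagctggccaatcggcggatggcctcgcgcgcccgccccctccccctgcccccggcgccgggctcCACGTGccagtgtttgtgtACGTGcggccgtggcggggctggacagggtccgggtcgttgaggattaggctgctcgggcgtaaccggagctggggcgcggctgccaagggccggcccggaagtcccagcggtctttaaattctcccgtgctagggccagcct
EGLN3: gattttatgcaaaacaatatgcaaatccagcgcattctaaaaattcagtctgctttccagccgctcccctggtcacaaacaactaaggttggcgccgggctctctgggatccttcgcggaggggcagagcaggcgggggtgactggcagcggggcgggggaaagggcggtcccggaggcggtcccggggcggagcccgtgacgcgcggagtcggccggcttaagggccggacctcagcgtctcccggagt
The CA9 window holds 1 motif, which begins 18 bases before the start. The ANKRD37 window holds 3, of which a CACGTG counts on both strands, PDK1 holds 2 close to its start, ANGPTL4 holds 1 at the far end, and the EGLN3 window holds neither core. Over the 55 windows of the 32 members with an entry, 65.5% held at least 1 of the cores, against 43.2% of all 35116 windows of this length. Base composition was not matched in that comparison, other transcripts of these genes can start inside or before the windows, and a match describes letters, not binding. VEGFA, NDRG1 and BNIP3L have no entry.

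Summed over the 16 other hypoxia members, the level was 1377 CPM (1344 to 1411) in VIM-rich C1-sgEED cells and 1458 CPM (1426 to 1490.3) in KRT17-rich C1-sgEED cells. It was 1339.7 CPM (1310.2 to 1369.6) in VIM-rich and 1541 CPM (1514 to 1569) in KRT17-rich C1-sgKMT2D cells, against 2036 CPM (2007 to 2065) in KRT17-rich C1-sgControl cells. The KRT17-rich ranges of both knockout lines, and also their VIM-rich ranges, had lower sums than the KRT17-rich control. NDRG1, BNIP3 and DDIT4 carry most of that sum. Without them the 13 remaining genes summed to 643, 482, 472 and 408 CPM in the same order of knockout ranges, against 715 CPM in KRT17-rich C1-sgControl cells. The 19 glycolytic members summed to 15168 CPM in VIM-rich and 13327 CPM in KRT17-rich C1-sgEED cells, 12188 and 12122 CPM in the C1-sgKMT2D ranges, and 14771 CPM in KRT17-rich C1-sgControl cells. GAPDH carries much of this sum. Without it the 18 remaining genes summed to 8801 and 7874 CPM in the C1-sgEED ranges, 6827 and 7213 CPM in the C1-sgKMT2D ranges, and 9172 CPM in KRT17-rich C1-sgControl cells. Both C1-sgKMT2D ranges were the lowest with and without GAPDH, whereas VIM-rich C1-sgEED cells were above the control only with it. The sum without GAPDH still holds ALDOA, on chromosome 16, which was lower as a whole in C1-sgKMT2D (below). ALDOA alone had 761 and 740.0 CPM in the C1-sgKMT2D ranges, 1286 and 1278 CPM in the C1-sgEED ranges and 1542 CPM in control cells.

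**Figure D1:**
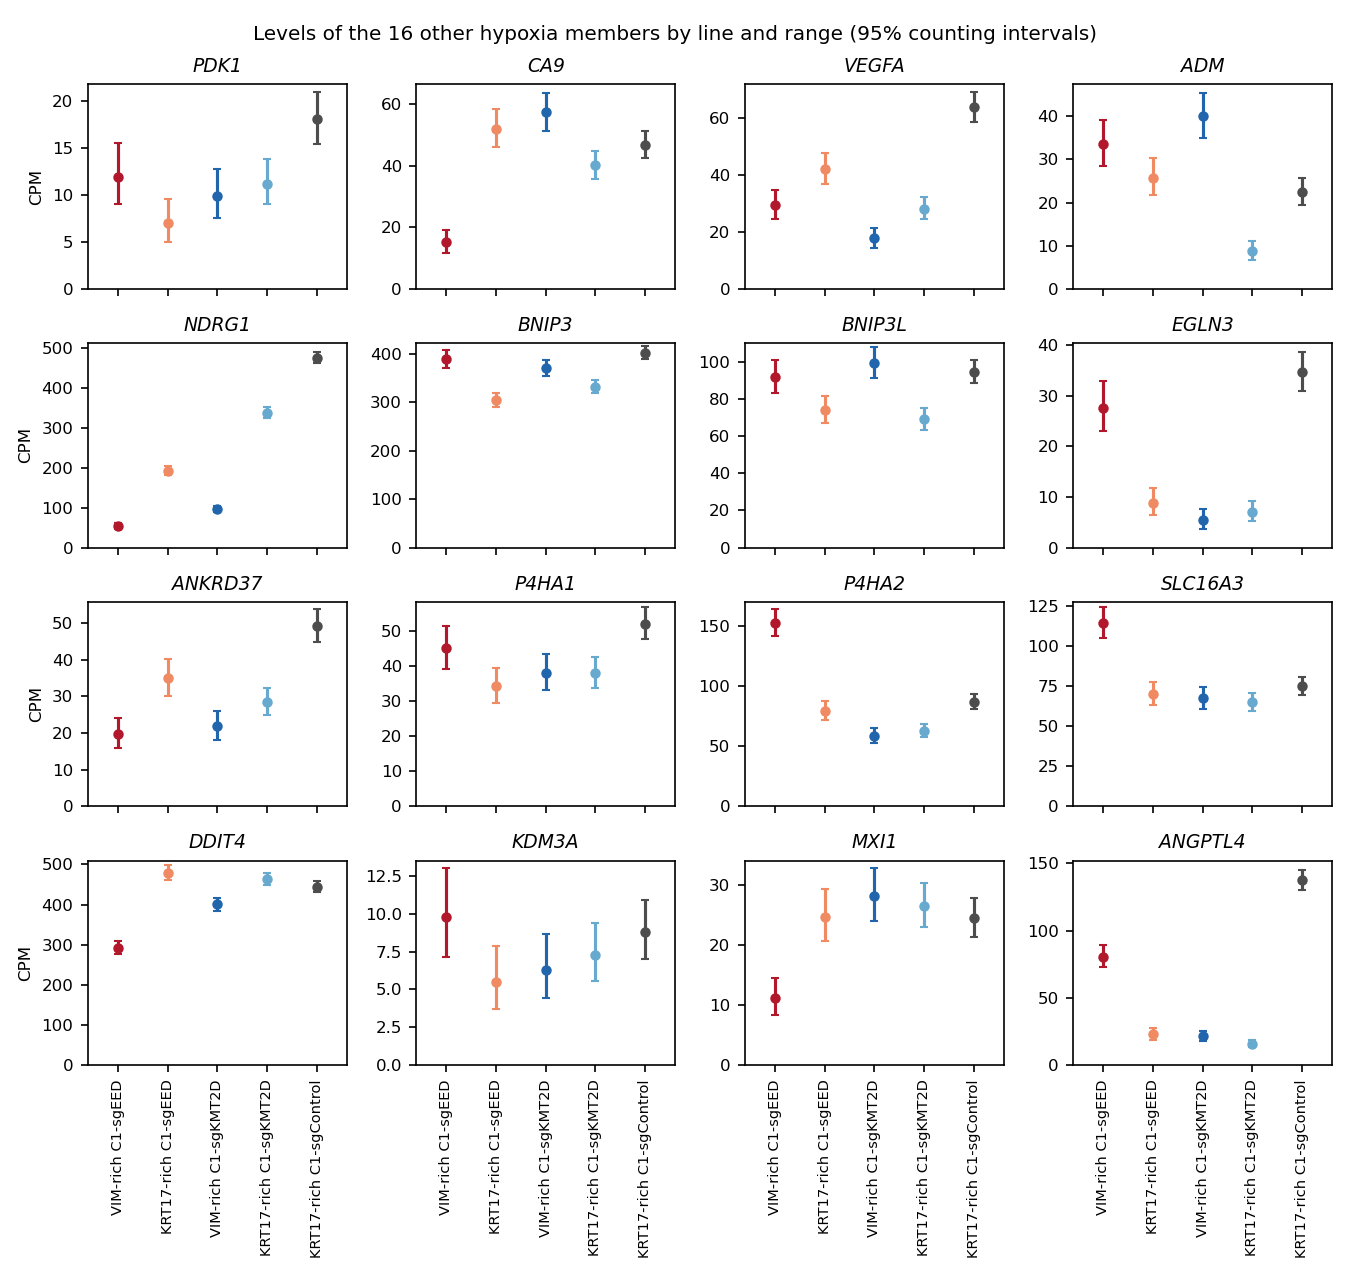
Level of each of the 16 other hypoxia members (CPM, linear axes from 0) in VIM-rich and KRT17-rich C1-sgEED, VIM-rich and KRT17-rich C1-sgKMT2D and KRT17-rich C1-sgControl cells, with bars for 95% counting intervals. ANGPTL4 and EGLN3 are high in VIM-rich C1-sgEED and in control cells and low in the other ranges, NDRG1 is low in both VIM-rich ranges, and CA9 is low in VIM-rich C1-sgEED cells.

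Among KRT17-rich cells, where all lines have many cells, several of the other hypoxia members were lower in both knockouts, with ANGPTL4 and EGLN3 showing the largest falls. In KRT17-rich C1-sgEED cells 6 of the 15 measured genes of this group fell against KRT17-rich C1-sgControl cells (PDK1, VEGFA, NDRG1, EGLN3, P4HA1 and ANGPTL4) and none rose, against 5.31% of all measured genes called lower and 8.18% called higher. Their median log2 ratio was -0.40, and that of all measured genes 0.07. In KRT17-rich C1-sgKMT2D cells 6 of 15 fell (PDK1, VEGFA, ADM, EGLN3, ANKRD37 and ANGPTL4) and none rose, where 13.9% of all measured genes were called lower and 6.56% higher. The median was -0.47, and that of all measured genes -0.02. Both comparisons use the same control cells, so they are not independent of each other. Cells with a UMI of a mitotic marker made up 56.0% of the KRT17-rich C1-sgEED, 59.4% of the KRT17-rich C1-sgKMT2D and 38.1% of the KRT17-rich C1-sgControl cells. Without those cells all of these calls held.

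ANGPTL4, a secreted inhibitor of lipoprotein lipase (chr19:8363289-8374373, GRCh38), stood at 22.8 CPM in KRT17-rich C1-sgEED and 15.8 CPM in KRT17-rich C1-sgKMT2D cells, against 138 CPM in KRT17-rich C1-sgControl cells, from 124, 126 and 1299 UMIs. These are 6.03-fold (5.01 to 7.31) and 8.69-fold (7.23 to 10.5) lower levels. EGLN3, the prolyl hydroxylase that marks HIF for destruction and is itself a HIF target (chr14:33924231-34462774), had 8.84 and 7.04 CPM in the KRT17-rich C1-sgEED and C1-sgKMT2D cells, against 34.7 CPM in control cells. It was 3.92-fold (2.89 to 5.43) lower in C1-sgEED and 4.92-fold (3.70 to 6.66) lower in C1-sgKMT2D cells. For both genes the control interval lies far above either knockout.

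PDK1, the kinase that switches off pyruvate dehydrogenase, had 6.995 CPM in KRT17-rich C1-sgEED and 11.2 CPM in KRT17-rich C1-sgKMT2D cells, against 18.0 CPM in control cells. The folds were 2.58-fold (1.80 to 3.76) lower in C1-sgEED and 1.61-fold (1.24 to 2.10) lower in C1-sgKMT2D cells. VEGFA, the angiogenic growth factor, had 42.0 and 28.2 CPM in the same 2 knockout ranges, against 63.8 CPM in control cells. It was 1.52-fold (1.30 to 1.78) lower in C1-sgEED, close to the threshold, and 2.27-fold (1.94 to 2.65) lower in C1-sgKMT2D cells. The C1-sgEED call of VEGFA was lost under stricter barcode or hashtag filters or without Scrublet doublets, and the C1-sgKMT2D call of PDK1 under stricter barcode filters, thinning or a stricter range rule.

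The remaining calls belonged to 1 line each. NDRG1, a stress-induced gene also regulated by MYC proteins, had 192 CPM in KRT17-rich C1-sgEED and 337 CPM in KRT17-rich C1-sgKMT2D cells, against 475 CPM in control cells, a 2.47-fold (2.31 to 2.64) lower level in C1-sgEED. ADM, a vasodilator peptide, had 25.8 and 8.68 CPM in the same knockout ranges, against 22.4 CPM in control cells, a 2.58-fold (1.96 to 3.43) lower level in C1-sgKMT2D. ANKRD37, an ankyrin-repeat protein, had 34.98 and 28.4 CPM, against 49.2 CPM in control cells, 1.73-fold (1.47 to 2.04) lower in C1-sgKMT2D. P4HA1, a catalytic subunit of collagen prolyl hydroxylase, had 34.2 and 38.0 CPM, against 52.1 CPM in control cells, 1.52-fold (1.28 to 1.81) lower in C1-sgEED. NDRG1, ANKRD37 and P4HA1 were below the control in both lines, whereas ADM in C1-sgEED cells was not. The P4HA1 call was lost under the stricter range rule. The difference between the knockouts was not tested.

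Other genes of this group did not reach 1.5-fold in KRT17-rich cells. The mitophagy receptor BNIP3 had 305 CPM for C1-sgEED and 332 CPM for C1-sgKMT2D cells, against 402 CPM in control cells, and its relative BNIP3L 74.0 and 69.2 CPM, against 94.7 CPM. CA9, a carbonic anhydrase of the cell surface that regulates pH and is a standard hypoxia marker, had 52.1 and 40.1 CPM, against 46.7 CPM in control cells. DDIT4, an inhibitor of the mTOR pathway, had 479 and 464 CPM, against 444 CPM in control cells. MXI1, an antagonist of MYC, had 24.7 and 26.4 CPM, against 24.4 CPM, and the lactate exporter SLC16A3 had 70.5 and 65.1 CPM, against 75.3 CPM. P4HA2, the relative of P4HA1, had 79.3 and 62.8 CPM, against 87.0 CPM in control cells. The histone demethylase KDM3A stayed under 10 CPM in these ranges and was not measured. BNIP3, DDIT4, MXI1 and P4HA1 lie on chromosome 10, whose measured genes were shifted upward against control in both lines. Its 292 measured genes had a median log2 ratio of 0.26 in KRT17-rich C1-sgEED cells, with 60 called higher and 6 lower. In KRT17-rich C1-sgKMT2D cells the median was 0.21 over 293 genes, with 61 higher and 23 lower. The part of that shift in the levels of these members was not tested.

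**Figure D2:**
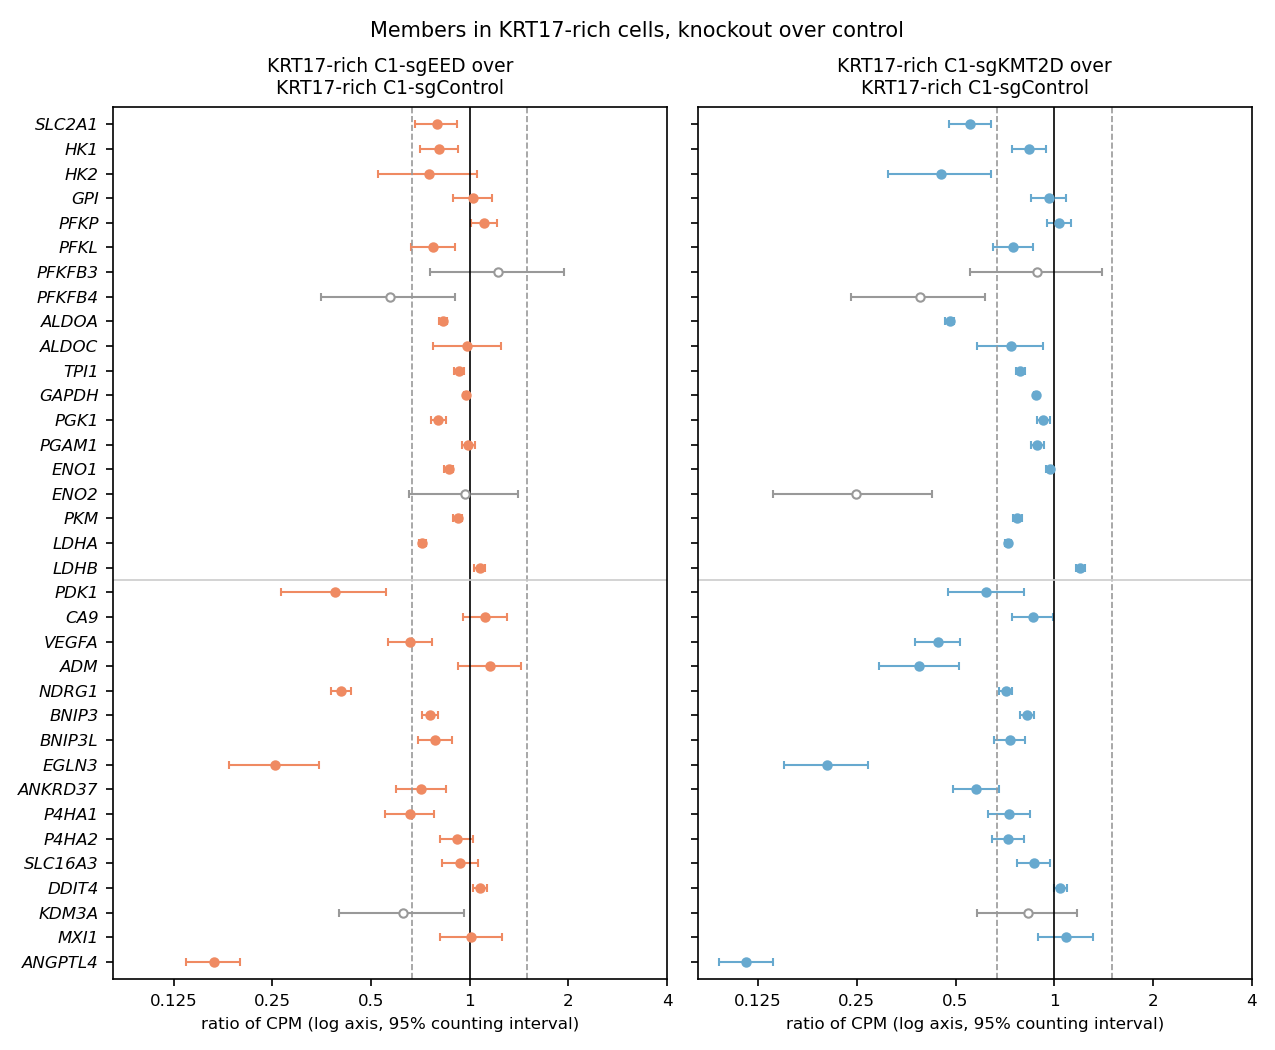
Ratio of levels (log axis) for all 35 genes in KRT17-rich cells, C1-sgEED over C1-sgControl on the left and C1-sgKMT2D over C1-sgControl on the right, with 95% counting intervals, glycolytic members above the grey line and other hypoxia members below it. Dashed lines mark 1.5-fold in either direction, and open grey points are genes under 10 CPM in both groups. ANGPTL4 and EGLN3 lie farthest left in both panels among the measured genes.

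The glycolytic members moved less in KRT17-rich cells. In C1-sgEED none of the 16 measured genes reached 1.5-fold in either direction, with a median log2 ratio of -0.17. Of all measured genes only 5.31% were called lower and 8.18% higher in that comparison, and their median was 0.07. In C1-sgKMT2D 3 of 16 fell (SLC2A1, HK2 and ALDOA), none rose, and the median was -0.30. With 13.9% of all measured genes called lower there, this count is near the background. In both lines 14 of 16 genes lay below the median of all measured genes.

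SLC2A1, the glucose transporter GLUT1, had 48.8 CPM in KRT17-rich C1-sgEED and 34.1 CPM in KRT17-rich C1-sgKMT2D cells, against 61.6 CPM in KRT17-rich C1-sgControl cells, 1.81-fold (1.56 to 2.09) lower in C1-sgKMT2D. HK2, the inducible hexokinase, had 9.20 and 5.53 CPM, against 12.3 CPM in control cells, 2.22-fold (1.56 to 3.22) lower in C1-sgKMT2D from 44 and 116 UMIs. ALDOA, the main muscle-type aldolase, had 1278 and 740.0 CPM, against 1542 CPM in control cells, 2.08-fold (2.02 to 2.15) lower in C1-sgKMT2D. ALDOA lies on chromosome 16 (chr16:30064164-30070457), and that chromosome as a whole was lower in the same comparison: its 314 measured genes had a median log2 ratio of -0.65, and 59.2% of them were called lower. Whether the lower ALDOA level is a property of the pathway or of the chromosome cannot be told apart in these data. In KRT17-rich C1-sgEED cells the 331 measured genes of chromosome 16 had a median of 0.08.

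LDHA, which makes lactate from pyruvate, had 1654 CPM in KRT17-rich C1-sgEED and 1664 CPM in KRT17-rich C1-sgKMT2D cells, against 2307 CPM in control cells, short of 1.5-fold in both. LDHB, which favours the reverse reaction, had 788 and 882 CPM, against 733 CPM in control cells, and was the highest of the glycolytic members relative to control in C1-sgKMT2D cells. GAPDH had 5453 and 4909 CPM, against 5599 CPM in control cells, and pyruvate kinase PKM had 1060.2 and 888 CPM, against 1152 CPM. Among the other enzymes of the main chain, TPI1 had 873 and 740.4 CPM, against 939 CPM in control cells, and the phosphoglycerate kinase PGK1 369 and 426 CPM, against 461 CPM. Enolase ENO1 had 947 and 1065 CPM, against 1099 CPM, and the mutase PGAM1 499.6 and 448 CPM, against 504 CPM. None of these genes reached 1.5-fold. The ubiquitous hexokinase HK1 had 57.6 and 59.9 CPM, against 71.4 CPM in control cells, and the isomerase GPI 61.9 and 58.2 CPM, against 60.6 CPM. The phosphofructokinase subunits PFKP, with 142 and 134 CPM against 129 CPM in control cells, and PFKL, with 43.8 and 42.4 CPM against 56.6 CPM, also stayed within 1.5-fold. So did the brain-type aldolase ALDOC, with 20.8 and 15.6 CPM against 21.2 CPM. ENO2 and the regulators of phosphofructokinase PFKFB3 and PFKFB4 were under 10 CPM in these cells. HK1, PFKP, PGAM1 and PFKFB3 lie on chromosome 10, and the part of its upward shift in their levels was not tested.

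Within C1-sgEED the VIM-rich cells did not differ from the KRT17-rich cells in 1 direction: the hypoxia members split. Of 15 measured other hypoxia members 5 were higher in VIM-rich cells (PDK1, EGLN3, P4HA2, SLC16A3 and ANGPTL4) and 5 lower (CA9, NDRG1, ANKRD37, DDIT4 and MXI1), against 13.4% of all measured genes called higher and 14.9% called lower. Their median log2 ratio was 0.35, and that of all measured genes 0.03. The median depth was 3478 UMIs in VIM-rich and 4403 UMIs in KRT17-rich cells, and 65.3% and 56.0% of the cells held a UMI of a mitotic marker.

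ANGPTL4 had 80.6 CPM in VIM-rich and 22.8 CPM in KRT17-rich C1-sgEED cells, 3.53-fold (2.88 to 4.36) higher, and EGLN3 27.7 and 8.84 CPM, 3.13-fold (2.23 to 4.45) higher. Both genes, which were lower than control in the KRT17-rich cells of this line, were thus higher in its VIM-rich than in its KRT17-rich cells. The VIM-rich levels were still below those of KRT17-rich C1-sgControl cells (138 and 34.7 CPM), with overlapping intervals for EGLN3. P4HA2 had 153 CPM in VIM-rich and 79.3 CPM in KRT17-rich cells, 1.92-fold (1.70 to 2.17) higher. P4HA2 lies on chromosome 5 (chr5:132191838-132295315), whose 403 measured genes had a median log2 ratio of 0.38 in this comparison, with 148 called higher and 18 lower, and the part of that shift in the P4HA2 level was not tested. SLC16A3 had 114 and 70.5 CPM, 1.62-fold (1.42 to 1.86) higher, and PDK1 11.9 and 6.995 CPM, 1.70-fold (1.11 to 2.64) higher.

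CA9 had 15.1 CPM in VIM-rich and 52.1 CPM in KRT17-rich C1-sgEED cells, 3.45-fold (2.65 to 4.54) lower. NDRG1 had 53.6 and 192 CPM, 3.59-fold (3.12 to 4.13) lower, and this was its lowest level in any range of the 3 lines. MXI1 had 11.1 and 24.7 CPM, 2.23-fold (1.61 to 3.13) lower, ANKRD37 19.8 and 34.98 CPM, 1.77-fold (1.37 to 2.29) lower, and DDIT4 292 and 479 CPM, 1.64-fold (1.54 to 1.75) lower. CA9 and ANGPTL4, both widely used as hypoxia-induced genes, therefore differed in opposite directions between these ranges. ADM, VEGFA, P4HA1, BNIP3 and BNIP3L stayed within 1.5-fold. Without mitotic cells ANKRD37 and SLC16A3 were no longer called, and under stricter barcode filters PDK1 was not.

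Of 16 measured glycolytic members 11 had a positive log2 ratio in VIM-rich over KRT17-rich C1-sgEED cells. Their median was 0.13, and that of all measured genes 0.03, with 10 of the 16 above the latter and 6 below it. None was called higher and 1 was called lower, against 13.4% and 14.9% of all measured genes. ENO1 came nearest to 1.5-fold higher, with 1373 CPM in VIM-rich and 947 CPM in KRT17-rich cells. TPI1 had 1095 and 873 CPM and GAPDH 6367 and 5453 CPM. The only call was ALDOC, with 11.3 and 20.8 CPM, 1.85-fold (1.32 to 2.61) lower in VIM-rich cells. HK2 had 8 UMIs in VIM-rich (1.70 CPM) and 50 UMIs in KRT17-rich cells (9.20 CPM), below the level at which it was counted.

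In C1-sgKMT2D the same split of cells gave fewer differences, but it parted VIM itself less. VIM had 4659 CPM in VIM-rich and 2728 CPM in KRT17-rich C1-sgKMT2D cells, against 6836 and 1163 CPM in the C1-sgEED ranges. KRT17 had 1135 and 10056 CPM in the C1-sgKMT2D ranges, against 709 and 6740 CPM. Under a 3-fold rule for the ranges more members were called in C1-sgKMT2D (closing sections), so the number of calls depends on how sharply the ranges are cut. Of 14 measured other hypoxia members ADM was called higher and VEGFA and NDRG1 lower in VIM-rich cells, against 7.55% and 7.32% of all measured genes called higher and lower. The median log2 ratio was 0.03, and that of all measured genes 0.01. The median depth was 4520 UMIs in VIM-rich and 6716 UMIs in KRT17-rich C1-sgKMT2D cells, and 52.6% and 59.4% of the cells held a UMI of a mitotic marker. ADM had 40.0 CPM in VIM-rich and 8.68 CPM in KRT17-rich C1-sgKMT2D cells, 4.61-fold (3.51 to 6.12) higher, the widest difference of any member here. NDRG1 had 96.5 and 337 CPM, 3.49-fold (3.19 to 3.83) lower, and VEGFA 17.7 and 28.2 CPM, 1.59-fold (1.26 to 2.03) lower. ANGPTL4, with 21.5 and 15.8 CPM, and EGLN3, with 5.45 and 7.04 CPM, were low in both ranges, unlike in C1-sgEED. CA9 had 57.4 CPM in VIM-rich and 40.1 CPM in KRT17-rich cells, a 1.43-fold (1.22 to 1.67) ratio short of the threshold and opposite to its direction in C1-sgEED.

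Of 15 measured glycolytic members in C1-sgKMT2D only ALDOC was called, with 24.2 CPM in VIM-rich and 15.6 CPM in KRT17-rich cells, 1.55-fold (1.21 to 1.99) higher, and the median log2 ratio was 0.00. PKM had 667 and 888 CPM and SLC2A1 24.2 and 34.1 CPM, both lower in VIM-rich cells and short of 1.5-fold. ENO2, the neuronal enolase, had 39 UMIs in VIM-rich and 17 UMIs in KRT17-rich cells and was under 10 CPM. Between the lines, 11 members were called by range in C1-sgEED and 4 in C1-sgKMT2D. NDRG1 was called the same way in both, which is 9.09% of the calls in C1-sgEED and 25% of those in C1-sgKMT2D, and ALDOC in opposite ways. Over all measured genes, 611 were called the same way in both lines, which is 26.9% of the 2270 calls in C1-sgEED and 55.0% of the 1111 calls in C1-sgKMT2D, and 50 in opposite ways. With so few members called, nothing particular to them can be read from this. The C1-sgKMT2D call of ALDOC was lost under TMM and median-of-ratios scaling, and that of VEGFA under stricter barcode filters or thinning.

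**Figure D3:**
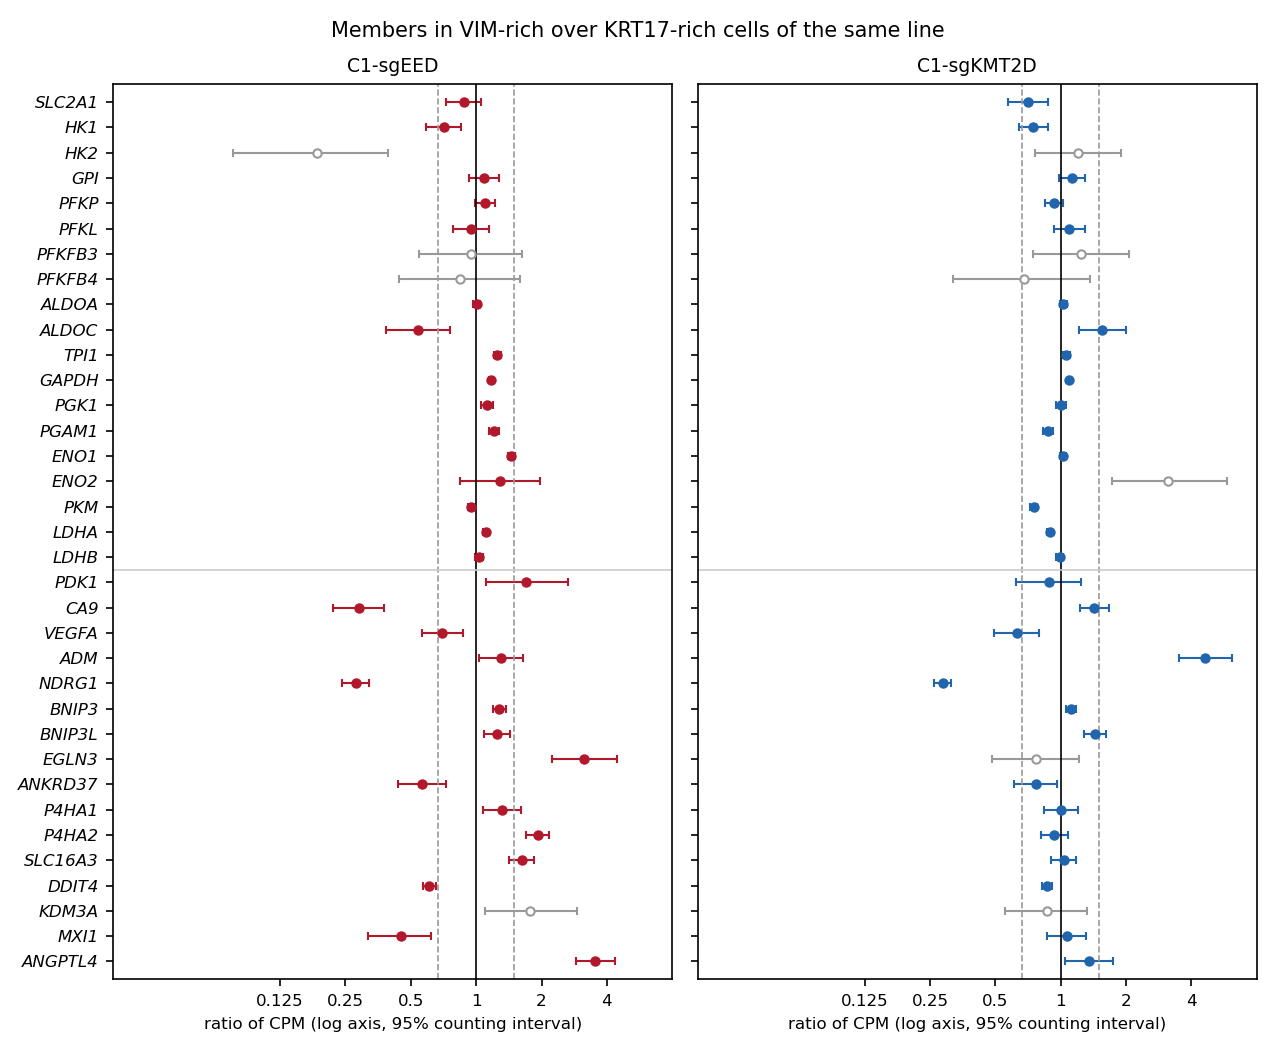
Ratio of levels (log axis) in VIM-rich over KRT17-rich cells of C1-sgEED on the left and of C1-sgKMT2D on the right for all 35 genes, with 95% counting intervals, glycolytic members above the grey line. Dashed lines mark 1.5-fold, and open grey points are genes under 10 CPM in both groups. NDRG1 lies left in both panels, ANGPTL4, EGLN3 and P4HA2 lie right of 1.5-fold in C1-sgEED, and ADM lies farthest right in C1-sgKMT2D among the measured genes.

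VIM-rich cells of both lines were then set against each other directly. Of 15 measured other hypoxia members 3 were higher in VIM-rich C1-sgKMT2D than in VIM-rich C1-sgEED cells (CA9, NDRG1 and MXI1) and 5 lower (VEGFA, EGLN3, P4HA2, SLC16A3 and ANGPTL4), against 9.53% and 19.3% of all measured genes. The median log2 ratio was -0.07, and that of all measured genes -0.12. CA9 had 57.4 CPM in VIM-rich C1-sgKMT2D and 15.1 CPM in VIM-rich C1-sgEED cells, 3.80-fold (2.93 to 4.98) higher. MXI1 had 28.1 and 11.1 CPM, 2.54-fold (1.85 to 3.54) higher, and NDRG1 96.5 and 53.6 CPM, 1.80-fold (1.55 to 2.10) higher. The NDRG1 call was lost without mitotic cells. These genes lay in the opposite order to ANGPTL4 and EGLN3.

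VEGFA had 17.7 CPM in VIM-rich C1-sgKMT2D and 29.4 CPM in VIM-rich C1-sgEED cells, 1.66-fold (1.28 to 2.16) lower, a call lost under stricter barcode filters or a total without mitochondrial and ribosomal protein genes. EGLN3 had 5.45 CPM in VIM-rich C1-sgKMT2D and 27.7 CPM in VIM-rich C1-sgEED cells, 5.08-fold (3.43 to 7.73) lower. ANGPTL4 had 21.5 and 80.6 CPM, 3.76-fold (3.06 to 4.63) lower, and SLC16A3 67.4 and 114 CPM, 1.70-fold (1.49 to 1.94) lower. P4HA2 had 58.7 and 153 CPM, 2.60-fold (2.28 to 2.96) lower, beside a median log2 ratio of -0.47 over 399 measured genes of its chromosome 5. Among 16 measured glycolytic members ALDOC was higher in VIM-rich C1-sgKMT2D cells and 5 were lower (SLC2A1, ALDOA, PGAM1, ENO2 and PKM), with a median of -0.31. Of all measured genes 9.53% were called higher and 19.3% lower, and their median was -0.12. Of the 16 members 10 lay below that median and 6 above it. SLC2A1 had 24.2 CPM in VIM-rich C1-sgKMT2D and 42.8 CPM in VIM-rich C1-sgEED cells, 1.77-fold (1.42 to 2.21) lower, a call lost on thinning. ALDOA had 761 and 1286 CPM, 1.69-fold (1.63 to 1.76) lower, beside a median of -0.63 over 304 measured genes of chromosome 16. PGAM1 (393 and 601 CPM), PKM (667 and 1006 CPM) and ENO2 (39 and 50 UMIs) lay 1.53-fold, 1.51-fold and 1.60-fold lower and lost the call under the other scalings tried except the mean over cells. ENO2 also lost it under the stricter range rule and PKM under stricter barcode filters.

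Taken over all cells of a line, where the makeup by range differs, C1-sgEED had 7 members lower than C1-sgControl (HK2, PDK1, VEGFA, NDRG1, EGLN3, ANKRD37 and ANGPTL4) and none higher, against 8.87% of all measured genes lower and 11.6% higher. C1-sgKMT2D had 9 lower (the same genes with SLC2A1 and ALDOA) and none higher, against 14.5% lower and 7.72% higher. ANGPTL4 had 49.2 CPM for C1-sgEED and 18.2 CPM for C1-sgKMT2D cells, against 136 CPM in C1-sgControl cells. Its level over all C1-sgEED cells combines the 2 ranges that differed 3.53-fold. P4HA1 in C1-sgEED and ADM in C1-sgKMT2D were called lower in KRT17-rich cells and not over all cells. HK2 and EGLN3 in C1-sgEED lost the call without mitotic cells, and PDK1 in C1-sgKMT2D on thinning.

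To see how the hypoxia members were spread over cells, each cell was thinned to 2000 UMIs and their UMIs summed, which left out 106 and 54 shallower cells of the C1-sgEED ranges, 66 and 42 of the C1-sgKMT2D ranges and 75 KRT17-rich C1-sgControl cells. The median was 2 UMIs per cell in VIM-rich and 3 in KRT17-rich C1-sgEED cells, 2 and 3 in the C1-sgKMT2D ranges, and 4 in KRT17-rich C1-sgControl cells. Cells with 8 or more such UMIs made up 2.94% (2.02 to 4.12) of 1089 VIM-rich and 2.84% (1.92 to 4.03) of 1057 KRT17-rich C1-sgEED cells. They made up 3.10% (2.15 to 4.30) of 1098 VIM-rich and 4.30% (3.19 to 5.67) of 1115 KRT17-rich C1-sgKMT2D cells, against 12.3% (10.7 to 14.0) of 1558 KRT17-rich C1-sgControl cells. The control range thus had both a higher middle and a longer upper tail. In the Fano factor, which is near 1 for a gene whose counts vary between cells only by counting, NDRG1 reached 1.36 and 1.45 in VIM-rich and KRT17-rich C1-sgEED cells, 1.29 in both C1-sgKMT2D ranges and 1.89 in KRT17-rich C1-sgControl cells. Its mean UMIs were 0.107 and 0.377 in the C1-sgEED ranges, 0.170 and 0.642 in the C1-sgKMT2D ranges and 1.01 in control cells. These factors were therefore not taken at equal means and do not rank the groups by unevenness. ANGPTL4 reached 2.24 in VIM-rich C1-sgEED cells at a mean of 0.160 UMIs, against 1.43 in KRT17-rich C1-sgControl cells at a mean of 0.297 UMIs.

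**Figure D4:**
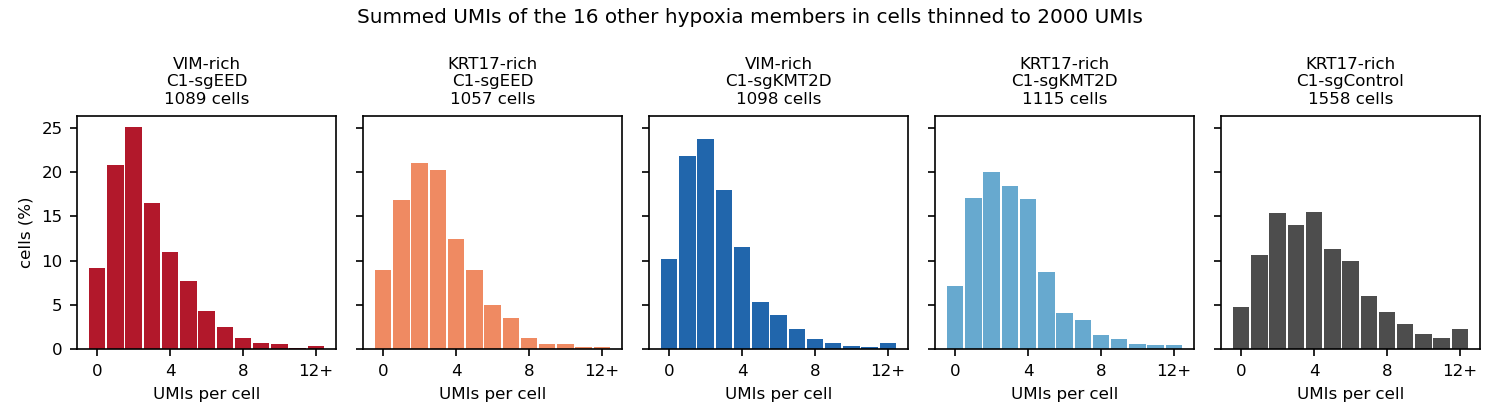
Share of cells (%) by their summed UMIs of the 16 other hypoxia members after thinning each cell to 2000 UMIs, for VIM-rich and KRT17-rich C1-sgEED, VIM-rich and KRT17-rich C1-sgKMT2D and KRT17-rich C1-sgControl cells. The last bar holds 12 or more UMIs, with 0.367% and 0.189% of the C1-sgEED, 0.638% and 0.448% of the C1-sgKMT2D and 2.31% of the control cells.

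Glycolytic UMIs were set beside these sums, since the 2 groups of genes share no member. In KRT17-rich C1-sgControl cells the mean was 33.2 glycolytic UMIs (SD 10.6, 191 cells) at 8 or more hypoxia UMIs and 26.2 (SD 8.35, 240 cells) at 0 or 1. In VIM-rich C1-sgKMT2D cells it was 31.2 (SD 13.5, 34 cells) and 22.3 (SD 7.21, 352 cells), and in VIM-rich C1-sgEED cells 35.5 (SD 9.94, 32 cells) and 29.4 (SD 8.52, 327 cells). KRT17-rich C1-sgKMT2D cells had 28.4 (SD 8.43, 48 cells) and 23.4 (SD 6.85, 270 cells), and KRT17-rich C1-sgEED cells 26.7 (SD 7.21, 30 cells) and 25.1 (SD 6.73, 273 cells). Between these 2 ends the means were higher at the upper end in all 5 ranges. The gap was less than 1 SD between cells except in VIM-rich C1-sgKMT2D cells, set against the SD at 0 or 1. In KRT17-rich C1-sgEED cells there was no steady rise: the mean was highest, at 28.0, for 4 or 5 hypoxia UMIs. Cells of a range share 1 library and are not replicates. In control cells the share with a UMI of a mitotic marker was 30.9% at the upper end and 43.8% at 0 or 1. It was 59.4% and 71.6% in VIM-rich and 43.3% and 60.8% in KRT17-rich C1-sgEED cells. VIM-rich C1-sgKMT2D cells had 50.0% and 51.4%, and KRT17-rich C1-sgKMT2D cells 70.8% and 57.4%, the opposite direction. The part of the mitotic share in the glycolytic differences was not tested.

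The enzymes did not take equal parts in it. PGK1 in KRT17-rich C1-sgControl cells had a mean of 1.13 UMIs at 6 or more hypoxia UMIs and 0.717 at 0 or 1, a ratio of 1.58, and LDHA 5.21 and 3.65 UMIs, a ratio of 1.43. In VIM-rich C1-sgKMT2D cells the PGK1 ratio was 2.44 (149 and 213 UMIs) and in VIM-rich C1-sgEED cells 1.56 (121 and 240 UMIs). It was 1.05 in KRT17-rich C1-sgKMT2D and 0.904 in KRT17-rich C1-sgEED cells. GAPDH ratios ran from 1.06 to 1.26 over the 5 ranges.

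**Figure D5:**
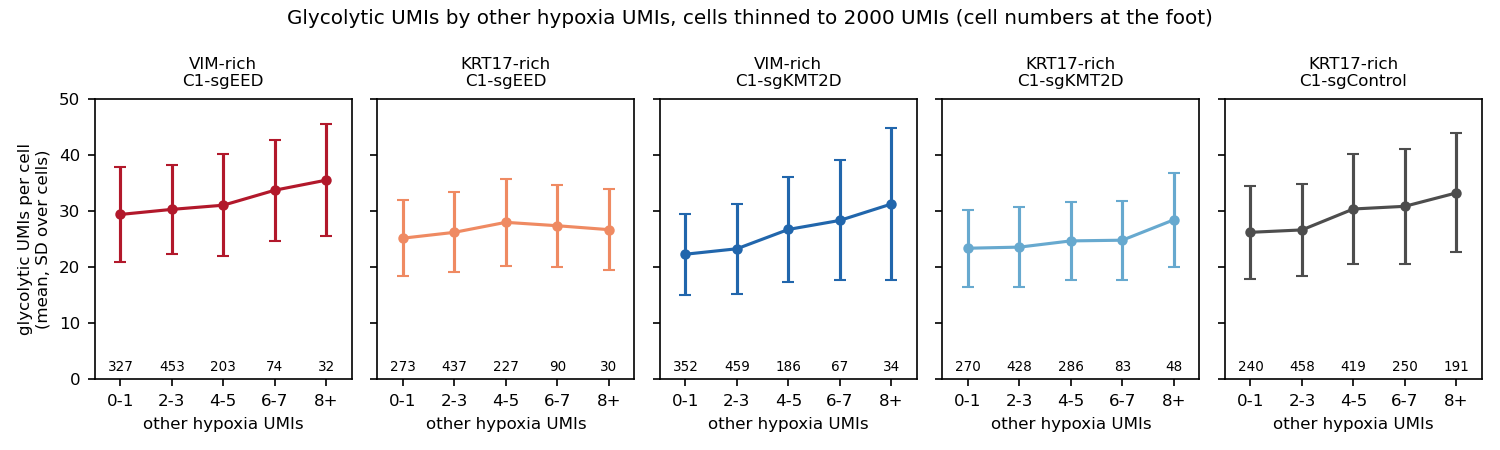
Mean glycolytic UMIs per cell, with SD over cells, by the cell's summed UMIs of the other hypoxia members, all cells thinned to 2000 UMIs, for the same 5 ranges. Numbers at the foot are cells per point, from 30 to 459, and the SD bars of neighbouring points overlap in every panel.

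Genes of the same pathways outside the 35 were counted by the same rule. Of 13 measured other glycolysis genes 1 rose and 4 fell in KRT17-rich C1-sgEED against KRT17-rich C1-sgControl cells, with a median log2 ratio of 0.14. In KRT17-rich C1-sgKMT2D cells 1 of 11 rose and 2 fell, with a median of -0.08. The shares over all measured genes were 8.18% higher and 5.31% lower, and 6.56% and 13.9%. None of 7 measured pentose phosphate genes was called in these comparisons. Of 9 measured oxygen-sensing genes 3 were higher and 1 lower in VIM-rich C1-sgEED cells, against 13.4% and 14.9% of all measured genes. In VIM-rich C1-sgKMT2D cells 2 of 10 were higher and none lower, against 7.55% and 7.32%. Against KRT17-rich C1-sgControl cells none of 9 rose and 1 fell in KRT17-rich C1-sgEED, and 1 rose and 2 fell in KRT17-rich C1-sgKMT2D cells. Among them HIF1A, which encodes the oxygen-regulated HIF subunit, had 91.2 CPM in VIM-rich and 53.9 CPM in KRT17-rich C1-sgEED cells. In the C1-sgKMT2D ranges it had 73.4 and 40.2 CPM. It was 1.69-fold (1.45 to 1.97) and 1.82-fold (1.57 to 2.11) higher in the VIM-rich cells. CITED2, a HIF-induced inhibitor of HIF, was higher in the same way, with 76.8 and 40.3 CPM in the C1-sgEED ranges and 99.9 and 52.2 CPM in the C1-sgKMT2D ranges. HIF is controlled mainly at the protein level, which was not measured. Of 21 measured hypoxia targets outside the members, 1 rose and 8 fell in KRT17-rich C1-sgEED cells against KRT17-rich C1-sgControl cells, and 1 rose and 9 fell in KRT17-rich C1-sgKMT2D cells. Of all measured genes, 8.18% were called higher and 5.31% lower in C1-sgEED, and 6.56% and 13.9% in C1-sgKMT2D. CA12, a further carbonic anhydrase, had 49.9 and 37.7 CPM in the KRT17-rich cells of these knockouts, against 94.8 CPM in control cells, and ERO1A, an oxidase of protein folding, 73.1 and 70.7 CPM, against 134 CPM. STC2, a secreted glycoprotein, rose in both, with 18.0 and 34.1 CPM, against 8.16 CPM. Between ranges 9 of 22 measured genes of this list were higher and 4 lower in VIM-rich C1-sgEED cells, against 13.4% and 14.9% of all measured genes. In VIM-rich C1-sgKMT2D cells 6 of 20 were higher and none lower, against 7.55% and 7.32%. The median log2 ratios of the list were 0.14 and 0.13, and those of all measured genes 0.03 and 0.01. The collagen lysyl hydroxylase PLOD2 had 95.1 CPM in VIM-rich and 38.8 CPM in KRT17-rich C1-sgEED cells, and 69.6 and 24.4 CPM in the C1-sgKMT2D ranges. SLC16A1, another lactate transporter, had 31.8 CPM in KRT17-rich C1-sgEED cells, against 61.9 CPM in KRT17-rich C1-sgControl cells, where SLC16A3 had 70.5 CPM, against 75.3 CPM.

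Some members also answer to the amino acid stress factor ATF4, among them DDIT4 and VEGFA. Of 11 measured genes of the ATF4 response, 6 rose in KRT17-rich C1-sgEED cells and none fell against KRT17-rich C1-sgControl cells. The shares over all measured genes were 8.18% higher and 5.31% lower. In KRT17-rich C1-sgKMT2D cells 6 rose and 1 fell, where the shares were 6.56% and 13.9%. DDIT3, an ATF4-induced transcription factor, had 32.6 and 52.6 CPM in these knockout ranges, against 16.6 CPM in control cells, and ASNS, asparagine synthetase, 63.0 and 52.1 CPM, against 33.3 CPM. Between the ranges of C1-sgEED none of these genes was higher and 6 were lower in VIM-rich cells, among them TRIB3 with 69.3 and 134 CPM. There 13.4% of all measured genes were called higher and 14.9% lower. Between the ranges of C1-sgKMT2D none of 11 was higher and 3 were lower, against 7.55% and 7.32% of all measured genes. The part of the ATF4 response in the DDIT4 and VEGFA levels was not tested.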

How the data were processed

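Single-cell RNA counts and hashtag counts were measured in 1 pool of the lines. The deposited matrix holds whole-number UMI counts per gene and barcode, made with Cell Ranger 3.0.2 on GRCh38 per the submitters' processing notes. Aligner settings, annotation version and strand use were not given in the sources used here. Kept were the 9193 of 10336 barcodes that had at least 500 genes and at most 20% mitochondrial UMIs. Lines were assigned by hashtag with a Gaussian mixture of 2 components, and 827 barcodes positive for several hashtags were dropped as doublets. Doublets within a line were left in. As an alternative, Scrublet calls were removed at a threshold of 0.25 with an expected rate of 0.09, chosen because its automatic threshold marked nearly no cell. RNA free in the shared pool was not estimated.

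UMIs were summed per group and scaled to CPM. Cells are not replicates, so no p-value was computed. Intervals are exact Poisson for levels, exact conditional binomial for ratios and Clopper-Pearson for shares. All 35 genes are accounted for, and measured genes at least 1.5-fold different are named, in 7 comparisons. The members and lists were chosen with earlier results of these data known. Gene positions come from GENCODE v29. Exons of 22 members overlap another gene of the matrix and 12 have pseudogenes named after them, so reads of these could be shared. Python 3.11.15, numpy 2.4.6, scipy 1.17.1, pandas 2.3.3, scikit-learn 1.9.0 and scanpy 1.11.5 were used, with edgeR 4.0.16 and DESeq2 1.42.0 in R 4.3.3 for alternative scaling factors only. The counting was tested on simulated data. Values of a few single genes are not reported.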

Additional observations from a re-analysis of the deposited data

Results flagged for a closer look

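ALDOC, the brain-type aldolase, differed between VIM-rich and KRT17-rich cells in opposite directions in the knockout lines. Its ratio was 0.542 in C1-sgEED, with 11.3 CPM in VIM-rich and 20.8 CPM in KRT17-rich cells, and 1.55 in C1-sgKMT2D, with 24.2 and 15.6 CPM. These levels rest on 53 and 113 UMIs in C1-sgEED and 142 and 124 UMIs in C1-sgKMT2D. The C1-sgKMT2D call was lost under TMM and median-of-ratios scaling, without a change of sign. Each line is 1 sample, so the difference between the lines was not tested.

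CA9 was higher in the cells of hashtag 2, which the comparisons did not use, than in C1-sgControl cells. It had 107 CPM in hashtag 2 cells and 46.1 CPM in C1-sgControl cells, a ratio of 2.32 (2.08 to 2.58).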

How the results depend on the processing

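Of 396 summary values recomputed under 14 other settings and 1 more chosen after seeing the data (leaving out chromosome 16), 378 kept their direction and size, 18 moved and none reversed. The values that moved were all counts of called members. Of the 60 calls 43 held in every setting that measured them, and none changed sign. Counting only members of at least 50 CPM tests fewer genes. It gave 3 lower over all C1-sgEED cells (7 otherwise), 5 lower over all C1-sgKMT2D cells (9 otherwise) and 4 lower in KRT17-rich C1-sgKMT2D cells (9 otherwise). Between ranges it gave 3 higher and 3 lower in C1-sgEED (5 and 6 otherwise) and 0 higher and 1 lower in C1-sgKMT2D (2 and 2 otherwise). Between VIM-rich C1-sgKMT2D and C1-sgEED cells it gave 2 higher and 6 lower (4 and 10 otherwise). Without mitotic cells 1 member was higher over all C1-sgEED cells (0 otherwise) and 4 were lower in VIM-rich than KRT17-rich C1-sgKMT2D cells. In that last comparison the higher count was 1 under TMM scaling, 1 under median-of-ratios scaling, 4 as a mean over cells and 5 under a 3-fold rule for the ranges. Its lower count was 1 with at least 1000 genes and at most 10% mitochondrial UMIs, and 5 under the 3-fold rule. A total without mitochondrial and ribosomal protein genes gave 6 lower between VIM-rich C1-sgKMT2D and C1-sgEED cells. For these other settings the cause was not tested. No paired analysis was possible because each line is 1 sample. Counting intervals do not cover variation between cultures or clones, and members near 10 CPM rest on few UMIs.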

Other observations

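The 1934 cells of hashtag 2, whose line the labels do not name, had 16232 CPM of the glycolytic members and 1838 CPM of the other hypoxia members. EGLN3 stood at 2.21 CPM in these cells and 33.7 CPM in C1-sgControl cells, a ratio of 0.0656 (0.0418 to 0.0985). PDK1 had 5.49 and 17.9 CPM, ANKRD37 13.8 and 48.6 CPM, and ANGPTL4 42.8 and 136 CPM. SLC2A1 had 22.8 and 62.0 CPM. GAPDH had 7057 and 5597 CPM. NDRG1 had 462 and 469 CPM over all cells, but VIM-rich cells made up 68.2% of hashtag 2 and 4.13% of C1-sgControl cells. By range, NDRG1 had 336 CPM in VIM-rich and 687 CPM in KRT17-rich hashtag 2 cells, against 475 CPM in KRT17-rich C1-sgControl cells.

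Genes of the glucocorticoid response were also counted, since the medium held hydrocortisone. Of 8 measured genes 1 rose in KRT17-rich C1-sgEED cells and 3 rose in KRT17-rich C1-sgKMT2D cells against KRT17-rich C1-sgControl cells, and none fell. Of all measured genes, 8.18% and 6.56% were called higher in these comparisons, so the count in C1-sgEED is near the background.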
